A study of Arabidopsis thaliana with 11 samples.

Results

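The plastid genome of Arabidopsis thaliana was followed here through RNA sequencing of whole seedlings of 4 genotypes. All 93 rows of the deposited count table whose identifier starts with ATCG were taken, of 22160 rows in all. In 10 cases 2 rows held equal counts in every library and were counted as 1 gene. This left 83 genes, of which 72 code for proteins, 3 for ribosomal RNA (rRNA) and 8 for transfer RNA (tRNA).

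The seedlings were 10 days old, untreated and grown on medium with sucrose. There were 3 libraries of wild type Col-0, 2 of xpo4-2, 3 of cpr5 and 3 of xpo4-2 cpr5, called the double mutant below. XPO4 encodes exportin-4, a receptor that carries proteins out of or into the nucleus, and CPR5, whose loss switches on defence, encodes a nucleoporin anchored in the membrane. No label says that replicates came from separate sowings, so p-values measure how these samples scatter, which can be a technical matter. The allele of cpr5 is not named in the labels. Whole seedlings hold green and non-green tissue, and in such bulk samples fewer cells of a type and less RNA per cell cannot be told apart. Total counts ran from 16922732 to 23088104 per library.

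The plastid genome is what remains of the genome of a cyanobacterial ancestor. It encodes core subunits of photosystem I and photosystem II, of the cytochrome b6f complex, of ATP synthase and of the NDH complex, the large subunit of Rubisco, part of the plastid ribosome and the core of a bacterial-type RNA polymerase. The other subunits of these assemblies are encoded in the nucleus and imported, so each assembly is built from the products of both genomes. Plastid transcripts are made by the plastid-encoded polymerase and by a phage-type polymerase encoded in the nucleus. In plastids a poly(A) tail marks RNA for breakdown, unlike in the cytosol. The libraries were labelled as mRNA libraries, so the counts are of plastid RNA that was polyadenylated or carried over, not of the whole plastid RNA pool.

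Sequences are shown first for psbA, the gene whose level separated wild type from cpr5 most clearly among the protein-coding genes, and for the stretches of adenines at which a poly(A) selection could hold RNA without a tail. They were read from the RefSeq plastid genome of the TAIR10.1 assembly, 154478 bases long. The psbA promoter element lies at positions 1530 to 1559 on the minus strand, 85 bases before the start codon, and its capitals mark the boxes of a bacterial-type promoter, TTGACA and TATACT, with 18 bases between them.
psbA promoter element: TTGACAtggctatataagtcatgtTATACT
Of the 73 windows of 250 bases before a plastid gene that were read, 10 (13.7%) held TTGACA on either strand and 30 (41.1%) held TATAAT on either strand. TTGACA followed after 15 to 20 bases by TANNNT on the strand of the gene was found in 3 windows (4.11%), those of psbA, atpF and ycf1. In the next lines the capitals mark the longest run of adenines in rpoA, psbA and the 16S rRNA gene rrn16. The 30 bases printed for each lie at positions 78087 to 78116 (minus strand), 1355 to 1384 (minus strand) and 102232 to 102261 (plus strand).
rpoA, a run of 14: aacctaagAAAAAAAAAAAAAAcaaaagaa
psbA, a run of 4: ataactagcactgAAAAccgtctttacatt
rrn16, a run of 5: tgagctaactccAAAAAcccgtcctcagtt
Over 64 genes of 1 exon the longest run was 2 to 14 bases, with a median of 5, and it reached 10 bases in 5 genes. Across these genes, which share libraries and an A-rich genome, the longest run and the mean level in CPM (counts scaled to library size) had a Spearman rho of 0.095. Among the abundant RNAs the longest run was 5 in rrn16 and 4 in psbA, but 7 in rrn23 and rpl32 and 10 in atpB and rpoB. Capture at such runs was not tested.

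Plastid shares, here and below, were summed over all 93 rows, so both rows of an equal pair enter them. Plastid genes took 0.439%, 0.325% and 0.3% of all counts in wild type, 0.315% and 0.167% for xpo4-2, 0.165%, 0.142% and 0.151% for cpr5, and 0.146%, 0.177% and 0.133% for the double mutant. Every cpr5 library lay below every wild type library, and so did the double mutant libraries, while the xpo4-2 libraries lay on either side of the lowest wild type library. The ratio of mean shares was 0.431 ± 0.0959 (SD carried over from both groups) for cpr5 against wild type, 0.429 ± 0.11 for the double mutant against wild type and 0.995 ± 0.168 for the double mutant against cpr5. These ratios rest on rRNA, which supplied 71428 of 78445 plastid counts in the first wild type library. Summed as TPM, a level corrected for transcript length, the ratio for cpr5 against wild type was 0.867, with the short gene rpl32 at a mean TPM of 2160 and each copy of rrn16 at 330. On that scale cpr5 overlapped wild type, at 0.48%, 0.511% and 0.388% beside 0.698%, 0.425% and 0.466%. On counts without genes listed more than once, rRNA among them, the ratio was 0.609.

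The protein-coding genes alone took 0.0387%, 0.026% and 0.0327% of counts in wild type and 0.0255% and 0.0154% for xpo4-2. Their share was 0.0202%, 0.0216% and 0.0185% for cpr5, and 0.0129%, 0.0179% and 0.012% for the double mutant. On counts all double mutant libraries lay below all cpr5 libraries, and these below all wild type libraries. On TPM the separation was lost: the protein-coding shares were 0.499%, 0.279% and 0.326% for wild type, 0.406%, 0.441% and 0.32% for cpr5, and 0.221%, 0.322% and 0.232% for the double mutant. With psbA left out of the counts, shares were 0.0312%, 0.0201% and 0.0194% for wild type and 0.0181%, 0.0194% and 0.0169% for cpr5, so that the highest cpr5 library met the lowest of wild type. Protein-coding counts are few: over the libraries the median count was under 20 for 49 of the 83 genes and 100 or more for 9.

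**Figure D1:**
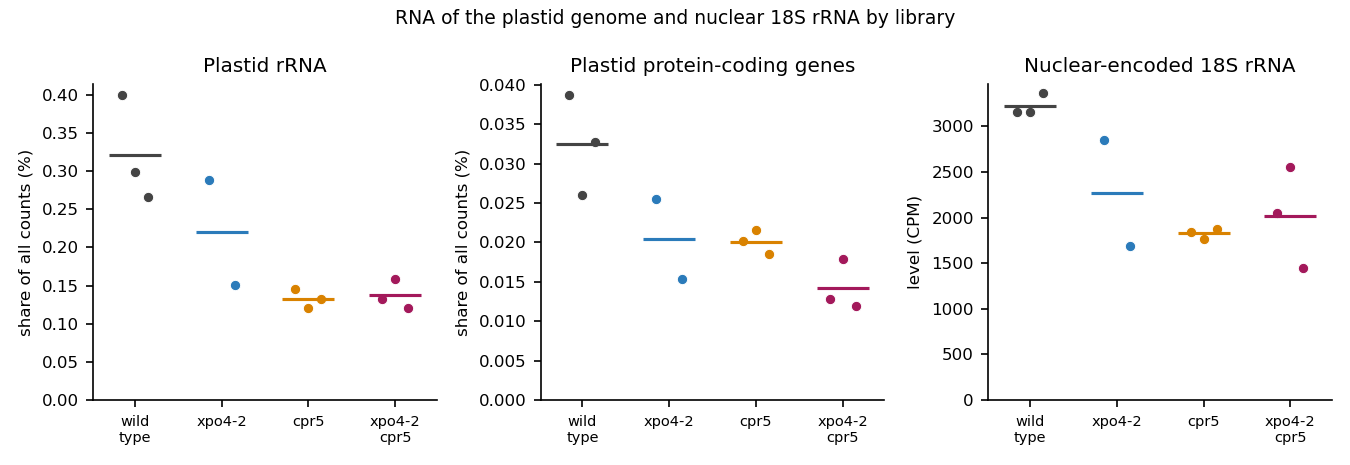
Share of all counts in percent taken by plastid rRNA (left) and by plastid protein-coding genes (middle), and the level of nuclear-encoded 18S rRNA in CPM (right), by genotype. Points are libraries (n = 3, 2, 3 and 3) and lines group means; the cpr5 points lie below all wild type points in each panel.

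Each gene was tested with edgeR's quasi-likelihood test, in 1 fit of 11 libraries with p-values adjusted by Benjamini-Hochberg over 21580 genes, and passed at an adjusted p under 0.05. A filter on low counts kept 68 of the 83 plastid genes, and those that it kept had to reach a minimum level in some libraries, so the counts below are of tested genes only. In cpr5 against wild type 4 plastid genes fell, psbA, rrn23, rrn16 and psaA, and 2.34% of all tested genes fell. In the double mutant against wild type 24 fell, and 19.1% of all tested genes fell. Between cpr5 and the double mutant 5 fell, namely psbI, atpB, rpl32, rpl33 and atpE, where 12.9% of all tested genes did, a share no lower than that of the plastid genes. In the double mutant against xpo4-2 8 fell (15.5% of all tested genes), and for the cpr5 allele averaged over both XPO4 backgrounds 16 fell (15.7%).

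No plastid gene rose in any of these comparisons by edgeR, and none that was higher had an unadjusted p under 0.05; limma on TPM called 1 higher against cpr5 and 1 against xpo4-2. Genes higher made up 4.3% of all tested genes in cpr5, 18.1% in the double mutant against wild type and 8.82% in the double mutant against cpr5. Groups whose libraries did not overlap, with every library lower, were seen for 18 of 83 plastid genes in cpr5 against wild type (13.5% of all tested genes), 32 in the double mutant against wild type (23.2%) 25 in the double mutant against cpr5 (24%) and 26 in it against xpo4-2 (27.8%). The comparisons with wild type share the wild type libraries, and those with the double mutant share its libraries.

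Over all 83 genes, in a fit without the filter, the median log2 fold change was -0.56 in cpr5 against wild type, -1.29 in the double mutant against wild type and -0.66 in the double mutant against cpr5, beside -0.006, 0.033 and 0.012 over all genes. Log2 fold changes were below 0 for 65, 75 and 68 of the 83 genes in that order. In xpo4-2 against wild type the median was -0.42, beside 0.019 over all genes, and 63 of the 83 genes were below 0. The medians were unchanged when genes at 0 in a whole group were set to a floor of 3 counts per group. Without scaling beyond library totals, the median of all tested genes in the double mutant was 0.32 against wild type and 0.27 against cpr5, and the tested plastid genes had medians of -1.01 and -0.34.

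The count in cpr5 was 2 without wild type replicate 1, wild type replicate 2 or cpr5 replicate 3, and 1, psbA, without cpr5 replicate 1 or cpr5 replicate 2. The count in the double mutant against cpr5 ran from 2, without cpr5 replicate 2 or double mutant replicate 1, to 8, without wild type replicate 1, and was 3 without cpr5 replicate 1, cpr5 replicate 3 or double mutant replicate 3.

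Of 3 plastid rRNA genes, rrn16 and rrn23 took nearly all rRNA counts, and rrn4.5, at 0.65 ± 0.588 CPM (SD, n = 3) in wild type, passed in no comparison. The level of rrn16, which encodes the RNA of the small ribosomal subunit, was 1082, 846 and 755 CPM for wild type, 907 and 448 for xpo4-2, 471, 348 and 374 for cpr5, and 295, 376 and 274 for the double mutant, for each of its 2 copies. The cpr5 and wild type libraries did not overlap. The gene fell 2.25-fold in cpr5 (a log2 fold change of -1.17, SE 0.256, with an adjusted p of 0.0237) and 2.84-fold in the double mutant against wild type (-1.51, SE 0.258, adjusted p 0.00117), and its change from cpr5 to the double mutant was -0.34 (SE 0.253, adjusted p 0.386). The call in cpr5 was lost without wild type replicate 1 or 2 or any cpr5 replicate, with adjusted p-values up to 0.0963 over all alternatives.

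The gene for the RNA of the large subunit, rrn23, was at 1069, 792 and 597 CPM for wild type, 683 and 327 for xpo4-2, 301, 274 and 300.4 for cpr5, and 286, 326 and 239 for the double mutant. Here cpr5 and the double mutant held overlapping ranges, below the whole range of wild type. It fell 2.81-fold in cpr5 (-1.49, SE 0.275, adjusted p 0.0118) and 2.89-fold in the double mutant (-1.53, SE 0.275, adjusted p 0.00156), and moved by -0.04 (SE 0.27) from cpr5 to the double mutant. It did not pass in cpr5 without cpr5 replicate 1 or 2, where the highest adjusted p was 0.0542.

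Ribosomal RNA of the nuclear genome moved beside that of the plastid. The row for nuclear-encoded 18S rRNA, AT3G41768, named here after its values were seen, was at 3155, 3154 and 3364 CPM for wild type, 2847 and 1684 for xpo4-2, 1847, 1769 and 1878 for cpr5, and 2055, 2560 and 1445 for the double mutant. Its log2 fold change was -0.82 for cpr5 (SE 0.226, adjusted p 0.0582) and -0.67 in the double mutant against wild type (SE 0.226, adjusted p 0.0372). The second xpo4-2 library was low in plastid rRNA, in this rRNA and in mitochondrial rRNA alike.

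Divided by the 18S count of the same library, rrn16 gave 0.343, 0.268 and 0.225 for wild type, 0.319 and 0.266 for xpo4-2, 0.255, 0.197 and 0.199 for cpr5, and 0.143, 0.147 and 0.19 for the double mutant. On this ratio cpr5 overlapped wild type and the double mutant lay below both. The ratio was taken for rrn16 alone. The other abundant plastid rRNA, rrn23, fell further than rrn16 in cpr5 and was not divided by 18S. The overlap therefore cannot be read as one of plastid rRNA as a whole. The mitochondrial 26S rRNA, ATMG00020, was at 52.7, 58.6 and 62.3 CPM for wild type, 64.1, 48 and 40.1 for cpr5, and 60.6, 90 and 53.3 for the double mutant, and did not pass in any comparison. The more abundant mitochondrial 18S rRNA, ATMG01390, was at 218, 203 and 191 CPM for wild type, 188, 114 and 142 for cpr5, and 127, 212 and 131 for the double mutant. Every cpr5 library was below every wild type library for it, as for plastid and nuclear rRNA, with a log2 fold change of -0.46 (SE 0.275, adjusted p 0.363). How much rRNA each library carried over was not measured apart, and its part in the fall of plastid rRNA was not tested.

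Photosystem II uses water as its source of electrons, and its D1 protein, the product of psbA, is damaged by light and replaced throughout the life of a leaf. The level of psbA was 80.7, 64.5 and 135 CPM for wild type, 48.5 and 17.9 for xpo4-2, 22.4, 22.7 and 16.4 for cpr5, and 14.1, 20.3 and 13.7 for the double mutant, from counts of 271 to 2566. Every mutant library lay below every wild type library. It fell 4.55-fold in cpr5 (-2.19, SE 0.378, adjusted p 0.00893) and 5.83-fold in the double mutant against wild type (-2.54, SE 0.383, adjusted p 0.000546).

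This gene passed in cpr5 under all 21 alternatives run, with adjusted p-values from 3.33e-07 to 0.0463. From cpr5 to the double mutant it changed by -0.36 (SE 0.369, adjusted p 0.541), and in xpo4-2 against wild type by -1.5 (SE 0.424, adjusted p 0.0925). It made up 19.3%, 22.6% and 40.7% of plastid protein-coding counts in wild type, 17.3% and 11.3% for xpo4-2, 10.4%, 10.2% and 8.66% for cpr5, and 12.5%, 12.9% and 13.5% for the double mutant. The share of psbA within plastid mRNA was therefore lower in every xpo4-2, cpr5 and double mutant library than in any wild type library.

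The level of psbI, a small subunit bound to the reaction centre, was 5.37, 3.19 and 1.47 CPM for wild type, 2.84 and 1.2 for xpo4-2, 2.46, 2.64 and 2.54 for cpr5, and 0.501, 0.406 and 0.244 for the double mutant. It was low in the double mutant alone, where no library reached the lowest of any other genotype. It fell 6.58-fold against cpr5 (-2.72, SE 0.573, adjusted p 0.00774), from counts as low as 6, and changed by -0.39 in cpr5 against wild type (SE 0.516, adjusted p 0.719).

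In the double mutant against wild type 7 of 12 tested photosystem II genes fell, beside 19.1% of all tested genes. Among these 7 were psbB (-1.87) and psbD (-2.04), which encode a core antenna protein and the D2 protein, and psbC (-1.42), another core antenna protein. Since psbD and psbC overlap by 53 bases on 1 strand, their values are not independent. The gene psbM, for another small subunit, was at 11.3, 4.93 and 5.31 CPM for wild type, 5.73 and 2.13 for xpo4-2, 4.86, 4.35 and 4.71 for cpr5, and 3.32, 7.2 and 3.69 for the double mutant. The xpo4-2 and double mutant ranges overlapped that of wild type, and the cpr5 libraries lay narrowly below it. No comparison passed for psbM by edgeR (adjusted p 0.466 for cpr5, 0.331 in the double mutant against wild type).

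Photosystem I, which reduces ferredoxin, has a reaction centre built from the products of psaA and psaB. The level of psaA was 9.58, 6.61 and 10.2 CPM for wild type, 4.34 and 1.86 for xpo4-2, 2.19, 2.8 and 3.56 for cpr5, and 2.55, 1.17 and 1.83 for the double mutant. All mutant libraries were below all wild type libraries. It fell 3.09-fold in cpr5 (-1.63, SE 0.408, adjusted p 0.0409) and 4.75-fold in the double mutant against wild type (-2.25, SE 0.417, adjusted p 0.00189). The call in cpr5 was lost when any wild type or cpr5 library was left out, with adjusted p-values up to 0.158 over all alternatives.

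Its partner psaB was at 8.56, 6.49 and 6 CPM for wild type, 3.95 and 2.35 for xpo4-2, 3.1, 3.11 and 3.32 for cpr5, and 1.37, 2.08 and 1.75 for the double mutant. The groups again did not overlap with wild type, and its change in cpr5 was -1.14 (SE 0.308, adjusted p 0.0526) and in the double mutant -2.02 (SE 0.317, adjusted p 0.000708). The small subunit gene psaJ behaved otherwise, at 18.5, 12.2 and 19.6 CPM for wild type, 15.4 and 9.95 for xpo4-2, 16.1, 16.4 and 19.7 for cpr5, and 8.69, 15.3 and 5.07 for the double mutant. Its change was 0.05 (SE 0.352, adjusted p 0.954) in cpr5 and -0.8 (SE 0.356, adjusted p 0.104) in the double mutant. The assembly factor gene ycf4 was too low to be tested, at 0.482, 0.421 and 0.263 CPM for wild type, 0.556 and 0.0888 for xpo4-2, 0.32, 0.155 and 0.181 for cpr5, and 0.182, 0 and 0 for the double mutant.

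**Figure D2:**
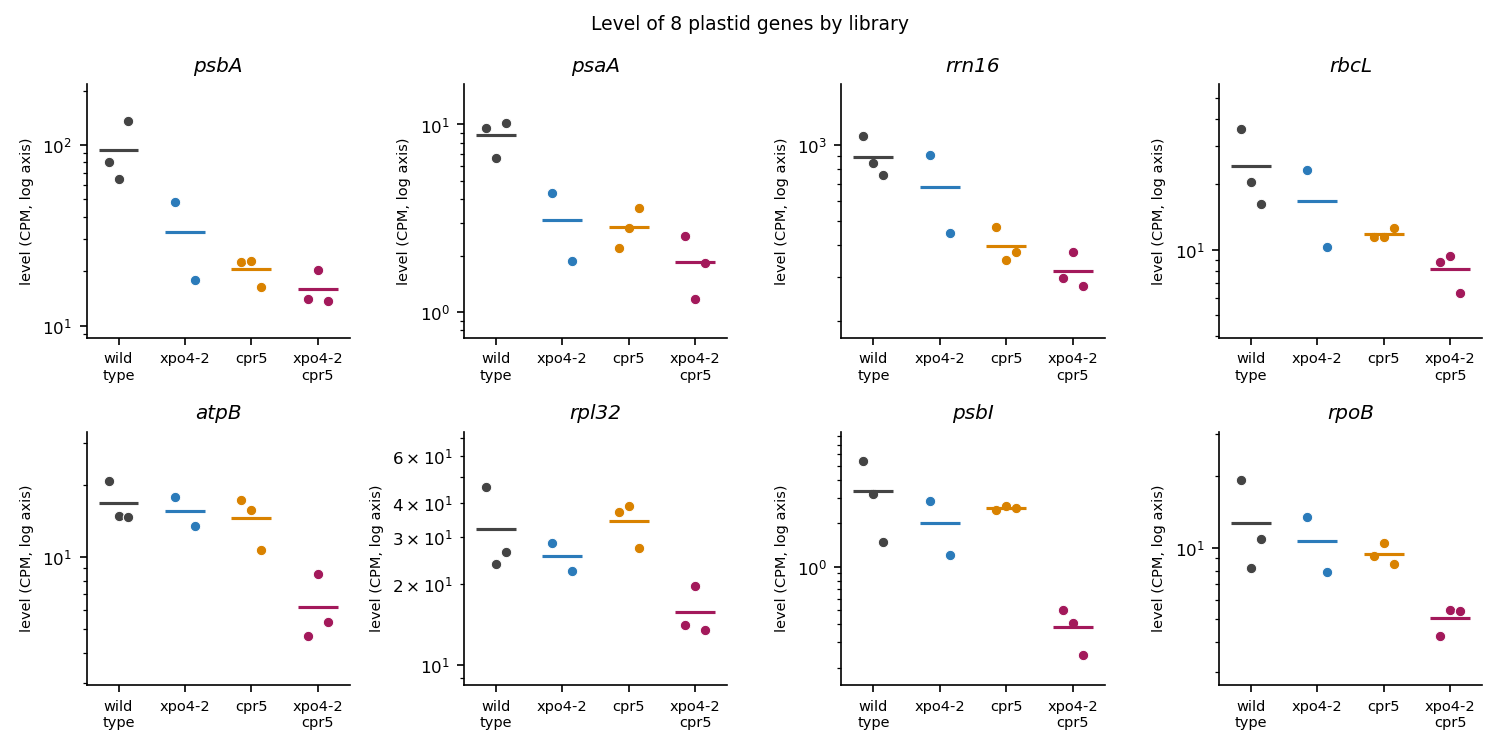
Level of 8 plastid genes in CPM on log axes, by genotype, with points for libraries (n = 3, 2, 3 and 3) and lines for group means. In psbA, psaA and rrn16 the cpr5 points lie below all wild type points, while in atpB, psbI and rpoB the double mutant points lie below those of the other genotypes.

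ATP synthase makes ATP from the proton gradient across the thylakoid membrane, and atpB encodes the catalytic subunit of its head. The level of atpB was 20.9, 14.9 and 14.7 CPM for wild type, 17.9 and 13.5 for xpo4-2, 17.4, 15.8 and 10.8 for cpr5, and 4.69, 8.52 and 5.36 for the double mutant. Wild type, xpo4-2 and cpr5 overlapped and the double mutant lay below them all. The gene fell 2.37-fold from cpr5 to the double mutant (-1.25, SE 0.28, adjusted p 0.0105) and 2.54-fold against xpo4-2 (-1.34, SE 0.304, adjusted p 0.00771), and its change in cpr5 was -0.2 (SE 0.273, adjusted p 0.729). The call against xpo4-2 was lost without xpo4-2 replicate 1 (adjusted p 0.0774), and that against cpr5 was kept under all 21 alternatives.

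The gene atpE, for a subunit of the stalk, overlaps atpB by 4 bases and is transcribed with it. It was at 6.09, 4.39 and 4.05 CPM for wild type, 4.89 and 2.58 for xpo4-2, 4.27, 3.68 and 4.47 for cpr5, and 1.78, 2.38 and 1.06 for the double mutant. It too was lowest in the double mutant, and it fell 2.38-fold against cpr5 (-1.25, SE 0.383, adjusted p 0.0401), a call lost without cpr5 replicate 1, 2 or 3, double mutant replicate 1 or 3, or wild type replicate 2, and without scaling; it passed in 13 of 21 alternatives. The ring subunit gene atpH was at 4.52, 4.45 and 2.21 CPM for wild type, 5.17 and 1.64 for xpo4-2, 2.56, 2.74 and 1.75 for cpr5, and 1.55, 2.48 and 1.42 for the double mutant. Its ranges overlapped between wild type and the mutants, and it passed in no comparison (adjusted p 0.122 in the double mutant against wild type).

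Rubisco fixes carbon dioxide, and its large subunit gene rbcL was at 36.1, 20.6 and 16.2 CPM for wild type, 23.4 and 10.3 for xpo4-2, 11.4, 11.5 and 12.6 for cpr5, and 8.74, 9.33 and 6.29 for the double mutant. The order from wild type through cpr5 to the double mutant held without overlap. The test placed only the end of it past the threshold, with a 2.99-fold fall in the double mutant against wild type (-1.58, SE 0.35, adjusted p 0.00508), beside -1.04 (SE 0.344, adjusted p 0.106) in cpr5 and -0.54 (SE 0.346, adjusted p 0.299) from cpr5 to the double mutant.

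The cytochrome b6f complex links the photosystems, and the NDH complex returns electrons from ferredoxin to plastoquinone. Their genes were near the limit of counting, with 3 of 6 and 7 of 10 tested. Of the cytochrome b6f genes, petA, for cytochrome f, fell in the double mutant against wild type (-1.82, SE 0.622, adjusted p 0.0403). The small subunit gene petN was at 0.904, 0.782 and 0.474 CPM for wild type, 0.723 and 0.355 for xpo4-2, 0.64, 0.362 and 0.121 for cpr5, and 0.319, 1.83 and 0.244 for the double mutant, without a call.

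Among NDH genes, 2 of 7 tested, ndhB and ndhC, fell in the double mutant against wild type, beside 19.1% of all tested genes. The level of ndhB was 1.75, 1.8 and 1.16 CPM for wild type and 0.364, 0.659 and 0.0812 for the double mutant (-2.09, SE 0.745, adjusted p 0.0481). The gene ndhC had 1 count in all 3 double mutant libraries together, so no fold is given. The gene ndhE was too low to be tested, at 0.543, 0.481 and 0 CPM for wild type, 0.222 and 0 for xpo4-2, 0, 0.207 and 0.483 for cpr5, and 0.182, 0.101 and 0.0406 for the double mutant.

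The plastid also encodes parts of its own gene expression machinery. Of the 4 genes for the core of the plastid-encoded RNA polymerase none passed in cpr5 by edgeR (0 had an unadjusted p under 0.05). Since 2.34% of all tested genes fell and 4.3% rose there, the lack of calls among 4 genes does not set this class apart. The median log2 fold change of the 4 genes in cpr5 was 0.17, beside -0.8 over the 13 photosystem II genes and -0.96 over the 5 photosystem I genes. In xpo4-2 against wild type these medians were 0.17, -0.73 and -1.16 in the same order. The difference between classes was not tested. The level of rpoB, for the beta subunit, was 19.2, 8.18 and 10.8 CPM for wild type, 13.4 and 7.86 for xpo4-2, 9.18, 10.5 and 8.52 for cpr5, and 4.23, 5.48 and 5.44 for the double mutant. The cpr5 libraries lay within the wild type range and the double mutant below it. It fell 2.52-fold in the double mutant against wild type (-1.33, SE 0.324, adjusted p 0.00861), and did not pass when TPM were tested with limma, where its adjusted p reached 0.121.

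Of 18 tested genes for ribosomal proteins none passed in cpr5 (1 had an unadjusted p under 0.05). With 2.34% of all tested genes lower there, the lack of calls among 18 genes does not set this class apart. The class had a median of -0.22 in cpr5 and -0.33 in xpo4-2 against wild type. The level of rpl32 was 46.1, 23.8 and 26.5 CPM for wild type, 28.5 and 22.5 for xpo4-2, 37, 39 and 27.4 for cpr5, and 14.1, 19.7 and 13.5 for the double mutant. The cpr5 libraries were as high as wild type and the double mutant lay below all others. It fell 2.19-fold from cpr5 to the double mutant (-1.13, SE 0.266, adjusted p 0.0131). The call was lost in every test on TPM, with an adjusted p up to 0.3, and without cpr5 replicate 2 or double mutant replicate 1. With a coding length of 159 bases this gene is short, and TPM of short genes depend strongly on the fragment length assumed.

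The gene rpl33 was at 1.27, 1.74 and 0.737 CPM for wild type, 2.34 and 0.711 for xpo4-2, 1.28, 1.35 and 0.725 for cpr5, and 0.319, 0.254 and 0.122 for the double mutant. Each double mutant library lay below all others. Against cpr5 the fall was 4.77-fold (-2.25, SE 0.676, adjusted p 0.0371) on counts as low as 3, and leaving out any cpr5 or double mutant library ended the call. Of the other genes, rpl2, listed in 2 rows, fell in the double mutant against wild type (-1.65, SE 0.381, adjusted p 0.0064).

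The gene clpP, for the plastid-encoded part of a protease that clears stroma proteins, passed in no comparison, at 4.94, 5.11 and 2.32 CPM for wild type, 3.61 and 3.95 for xpo4-2, 5.12, 6.11 and 5.38 for cpr5, and 3.73, 4.56 and 2.92 for the double mutant. Its change was 0.43 (SE 0.334, adjusted p 0.502) in cpr5 and -0.14 (SE 0.335, adjusted p 0.774) in the double mutant against wild type. The envelope protein gene cemA was at 7.23, 3.55 and 1.79 CPM for wild type, 3.78 and 2.75 for xpo4-2, 3.2, 2.43 and 1.81 for cpr5, and 0.91, 0.913 and 0.771 for the double mutant. The double mutant values were below all others, a 4.82-fold fall against wild type (-2.27, SE 0.507, adjusted p 0.00544).

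Of the tRNA genes, 5 of 8 were tested. The row ATCG00930, a copy of trnI, was at 0.784, 1.26 and 2.68 CPM for wild type, 2.28 and 1.02 for xpo4-2, 1.44, 0.932 and 0.363 for cpr5, and 0.364, 0.355 and 0.446 for the double mutant. It fell in the double mutant against wild type (-2, SE 0.678, adjusted p 0.0391). Leaving out wild type replicate 2 or 3, cpr5 replicate 2 or any double mutant library ended the call, as did dropping the scaling, fitting only the groups compared and every test on TPM, so that it passed in 9 of 21 alternatives, and the second copy, ATCG01200, held other counts, so the split of reads between the copies is uncertain.

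**Figure D3:**
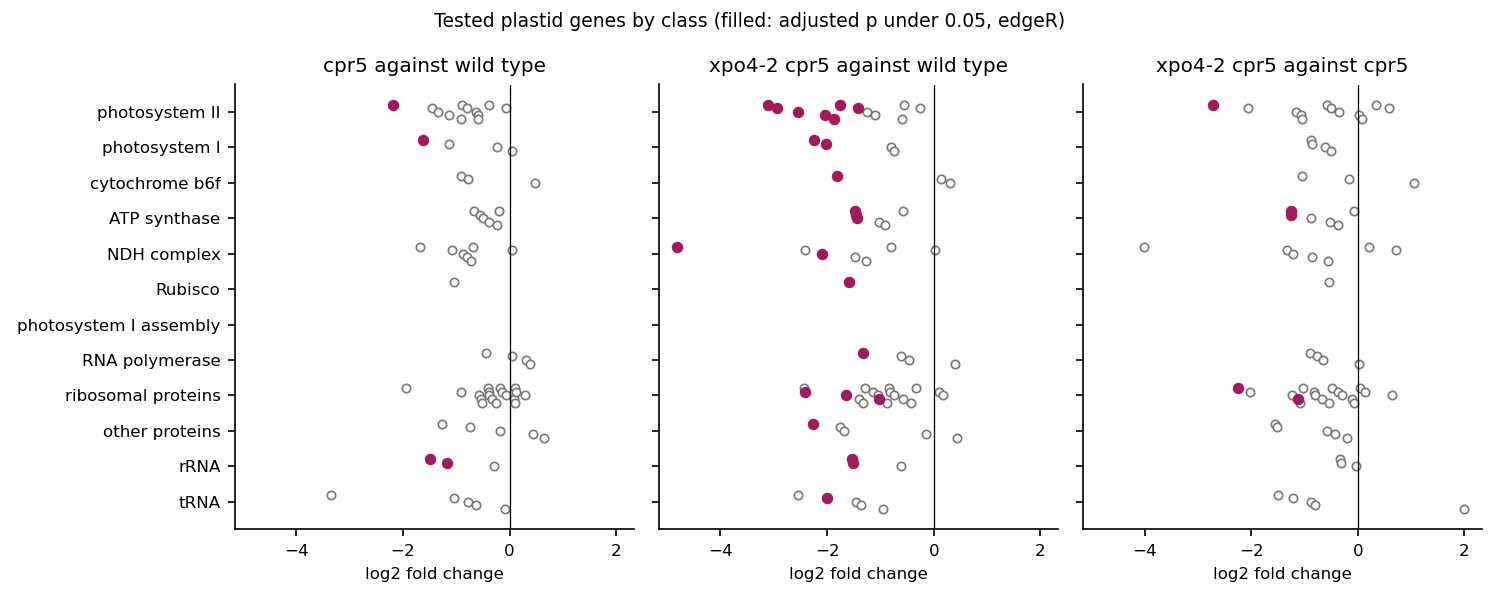
Log2 fold changes of the 68 tested plastid genes by class in 3 comparisons, from the edgeR fit. Filled points passed at an adjusted p under 0.05, which were 4, 24 and 5 genes from left to right; the row of photosystem I assembly is empty as its gene was not tested.

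The makeup of plastid protein-coding counts was described by class, with both rows of an equal pair included and no test. Photosystem II took 32.5%, 35.5% and 50.4% for wild type, 29.4% and 21.8% for xpo4-2, 21.1%, 21.1% and 22.2% for cpr5, and 25.7%, 24.4% and 26.1% for the double mutant. Ribosomal proteins took 24.8%, 22.7% and 15.3% for wild type and 25.08% and 30.2% for xpo4-2. They took 32.4%, 32.7% and 28.3% for cpr5, and 27.3%, 28.13% and 29.95% for the double mutant. RNA polymerase genes took 6.23%, 5.21% and 4.15% for wild type and 7.325% and 9.364% for xpo4-2. Their share was 7.77%, 7.28% and 7.77% for cpr5, and 6.452%, 8.125% and 8.506% for the double mutant. For both classes every mutant library lay above every wild type library. The shares of photosystem I, cytochrome b6f, ATP synthase, the NDH complex and Rubisco overlapped between wild type and cpr5. Shares add to a whole, so a lower share of psbA raises the others.

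Levels of different genes can be compared only per length, and here only for genes of at least 300 bases. In wild type rrn16 had the highest TPM among these, 502 ± 87 (SD, n = 3) for each copy, followed by rrn23 at 217 ± 59 and psbA at 112 ± 50.9, and the last 2 overlapped within their spread, psbA being above rrn23 in the third library (170 and 165). The next were rpl16 at 35.1 ± 13.3, atpE at 32.6 ± 4.58 and rpl14 at 29.4 ± 17.7, which did not differ beyond their spread, and rbcL stood at 17.6 ± 6.73.

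The subunits that the nucleus supplies to the same complexes were set beside the plastid genes. In cpr5 against wild type 1 of 51 nuclear-encoded subunits of the photosystems, cytochrome b6f, ATP synthase, NDH and Rubisco fell, NDHO (-0.89, SE 0.195, adjusted p 0.0237), and their median was -0.23. This count is near the share over all tested genes, 2.34%. In the double mutant against cpr5 49 of 51 fell, with a median of -1.68, and 12.9% of all tested genes fell. Of the tested plastid genes of these complexes, 1 of 12 fell for photosystem II and 2 of 6 for ATP synthase. None fell for photosystem I, cytochrome b6f, the NDH complex or Rubisco. With the other classes included, 5 of 68 tested plastid genes fell in that comparison. PSBQ1 and PSBQ2, of the oxygen-evolving part of photosystem II, fell 3.21-fold and 5.09-fold there (adjusted p 9.31e-05 and 9.41e-05). Against wild type, 51 of 51 fell in the double mutant, with a median of -1.85, beside 19.1% of all tested genes. Many nuclear genes of the lists are highly expressed and plastid genes are not, so the counts of calls are not on equal depth.

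For the ribosome of the plastid, 0 of 31 nuclear-encoded proteins passed in cpr5 by edgeR (3 had an unadjusted p under 0.05), where 2.34% of all tested genes fell. In the double mutant against cpr5 29 of 31 fell, beside 12.9% of all tested genes, with a median of -0.92. Among them PRPL11 fell 2.15-fold (adjusted p 0.000385). The plastid-encoded ribosomal proteins had 2 of 18 falling and a median over all 20 of -0.74. The difference between the genomes was not tested.

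**Figure D4:**
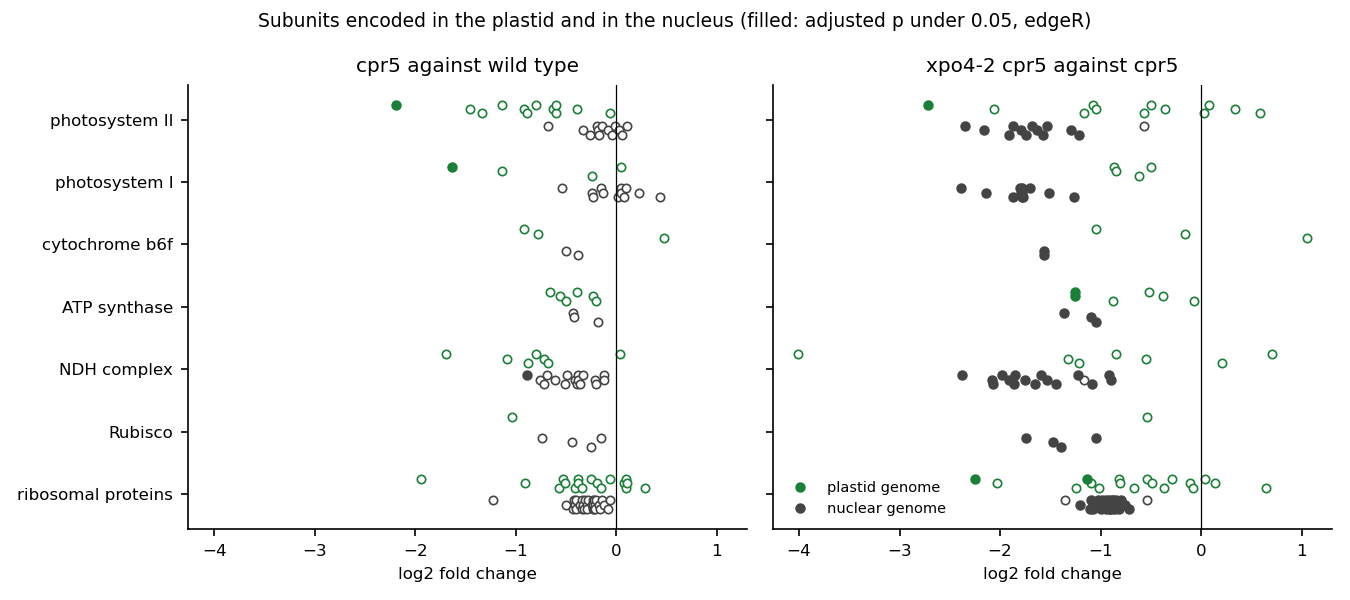
Log2 fold changes of plastid-encoded (green) and nuclear-encoded (dark grey) subunits of 7 assemblies in cpr5 against wild type and in the double mutant against cpr5. Filled points passed at an adjusted p under 0.05; of the nuclear-encoded subunits of the photosynthetic complexes 1 of 51 passed on the left and 49 of 51 on the right.

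The interaction asks whether xpo4-2 acts in cpr5 as it does in wild type. No plastid gene passed it by edgeR or by DESeq2, where 5.51% of all tested genes had a negative and 3.2% a positive interaction, and 4 plastid genes had an unadjusted p under 0.05. These were psbI (-1.99, SE 0.795, adjusted p 0.158), atpB (-1.14, SE 0.41, adjusted p 0.117), rpl33 (-2.53, SE 0.947, adjusted p 0.132) and rps2, which was positive (4.08, SE 1.39, adjusted p 0.102). For psbA it was 1.14 (SE 0.552, adjusted p 0.241). With 2 xpo4-2 libraries these standard errors are wide. The median over the plastid genes was -0.21, beside -1.94 over the 51 nuclear-encoded subunits, of which 48 passed as negative.

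In xpo4-2 against wild type no plastid gene passed by edgeR, where 1.96% of all tested genes fell and 0.755% rose. There were 6 with an unadjusted p under 0.05, namely psbA, psaB, psaA, rps2, rpl20 and rrn23, all lower. DESeq2 called psbA, psaB and psaA lower, and limma on TPM called rpl20. All libraries were lower in xpo4-2 for 13 of 83 plastid genes, beside 15.4% of all tested genes, and higher for 3. The xpo4-2 libraries differed from each other, psbA being at 48.5 CPM in the first and 17.9 in the second.

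Nuclear genes for plastid transcription and for the processing of plastid RNA were counted as well. Of 21 for transcription none passed in cpr5 by edgeR, although 10 had an unadjusted p under 0.05, and 2.34% of all tested genes fell there. In the double mutant against wild type 9 fell and 2 rose, where 19.1% of all tested genes fell and 18.1% rose. The 2 that rose are a smaller share than that. SIG2, a sigma factor that guides the plastid-encoded polymerase to promoters, was at 86.5 ± 14.6 CPM (SD, n = 3) in wild type, 63.3 ± 2.82 for cpr5 and 46.6 ± 2.97 for the double mutant, a 1.86-fold fall against wild type (adjusted p 0.000682). PAP7, a protein bound to that polymerase, fell 1.99-fold (adjusted p 0.000456), whereas PAP2 and MURE, other proteins of that complex, rose 1.9-fold and 1.46-fold (adjusted p 0.0385 and 0.0403).

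Of 22 genes for RNA processing and stability 1 fell in cpr5, PGR3 (-0.69, SE 0.124, adjusted p 0.0103), a pentatricopeptide protein that acts on plastid transcripts. As 2.34% of all tested genes fell in cpr5, 1 of 22 is too few to set the list apart. In the double mutant against wild type 14 fell, beside 19.1% of all tested genes. CSP41A and CSP41B, which bind plastid RNA, were at 355 ± 78.8 and 399 ± 94.6 CPM for wild type, 310 ± 15.2 and 365 ± 28.7 for cpr5, and 59.1 ± 10.3 and 111 ± 16.5 for the double mutant. They fell 5.25-fold and 3.28-fold from cpr5 to the double mutant (adjusted p 7.28e-05 and 0.000258).

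The mitochondrial genome was measured in the same libraries. Its 56 rows took 0.0289% to 0.0312% of counts in wild type, 0.0304% and 0.0191% for xpo4-2, 0.0202% to 0.03% for cpr5 and 0.0269% to 0.0419% for the double mutant. Of 45 tested rows 0 passed in cpr5 by edgeR (1 had an unadjusted p under 0.05), where 2.34% of all tested genes fell and 4.3% rose. Between wild type and the double mutant 1 fell and 2 rose, beside 19.1% and 18.1% of all tested genes. The median over its 56 rows was -0.06 for cpr5 and -0.05 for the double mutant, beside -0.56 and -1.29 over the plastid genes. In xpo4-2 against wild type, however, it was -0.55 over the mitochondrial rows, beside -0.42 over the plastid genes. There 1 of 45 tested mitochondrial rows fell, beside 1.96% of all tested genes.

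Markers of tissue moved with the genotypes too. The 13 root markers, none of them at 0 throughout, summed to 26.7 to 52.2 CPM for wild type, 52.5 to 94.8 for xpo4-2, 60.6 to 66.8 for cpr5 and 74.2 to 85.2 for the double mutant. The 7 markers of green tissue summed to 13670 to 23100 CPM for wild type, 21730 to 27910 for xpo4-2, 18000 to 19410 for cpr5 and 4018 to 5893 for the double mutant. In cpr5, where psbA, psaA and plastid rRNA fell, the summed green markers lay in the wild type range. The part of tissue composition in the changes of plastid RNA was not tested.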

How the data were processed

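The authors deposited whole-number counts per gene and TPM per transcript, here summed per gene. The counts may be rounded estimated counts, since copies of genes in the inverted repeat hold equal values; they were tested as counts. The design text speaks of triplicates, and 2 xpo4-2 libraries were analysed here. The build TAIR10 and the tools HTSeq 0.6.1p1 and HISAT2 2.0.4 come from the submitters' processing notes, with no roles. The deposited name of the TPM table credits kallisto. Handling of reads that match several genes and the strand setting are not given in the sources used here. Gene names came from a list of loci written by hand and checked against RefSeq: 84 rows had an entry of the same name, and the ratio of count to TPM followed the RefSeq length (Spearman rho 0.967 over 75 genes). The tRNA loci could not be checked by length.

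Counts were filtered with filterByExpr, scaled with TMM and tested with edgeR 4.0.16 in R 4.3.3. The common dispersion was 0.093. DESeq2 1.42.0 and limma 3.58.1 (on log2(TPM + 0.5), or + 0.1) served as alternatives. The fit was tested on simulated data. Genes described in full were the one of highest TPM per class and up to 5 with the smallest p per comparison and direction. Members, lists and rules were chosen with earlier results of these data known. The tests take in scatter between libraries beyond counting error (a biological coefficient of variation of 0.305). Counts of reads without molecular identifiers do not tell amplified copies from separate molecules.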

Additional observations from a re-analysis of the deposited data

Results flagged for a closer look

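Genes for which the effect of xpo4-2 differed between the wild type and the cpr5 background were counted in each list, by the interaction test of edgeR with Benjamini-Hochberg adjustment. Over all tested genes 5.51% had a negative and 3.2% a positive interaction. Negative interactions were found for 12 of 13 nuclear-encoded photosystem II subunits, 11 of 12 of photosystem I, 2 of 2 of cytochrome b6f, 3 of 3 of ATP synthase, 16 of 17 of the NDH complex and 4 of 4 of Rubisco. They were also found for 27 of 31 nuclear-encoded plastid ribosomal proteins, 2 of 21 genes of plastid transcription (PAP7 and SIG2) and 4 of 22 genes of plastid RNA processing. The gene CSP41A had an interaction of -2.23 (SE 0.266, adjusted p 0.00215). In the mitochondrial genome 1 of 45 tested rows had a positive interaction. The counts for transcription and for the mitochondrial genome are too near these shares to be read as a property of the list. No plastid gene passed the same test, while 4 had an unadjusted p under 0.05. No single plastid gene was checked for a library far from the rest, since groups of 2 or 3 are too small for such a check.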

How the results depend on the processing

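The fall of psbA in cpr5 and of psbI and atpB in the double mutant against cpr5 passed under all 21 alternatives run for each, and the 24 genes lower in the double mutant against wild type stayed between 16 and 26 when libraries were left out. Of 2747 values of single genes under alternatives, 2566 kept their side of the threshold, 136 lost a call, 45 gained one and 0 reversed. In xpo4-2 against wild type DESeq2 called 3 genes lower and limma on TPM 1 at each pseudocount and without a filter. In cpr5 limma without a filter called 2, and leaving out libraries gave 1 to 5. In the double mutant against cpr5 the 5 calls became 9 with only the groups compared, 10 with DESeq2 and 8 with limma at either pseudocount, and ran from 2 to 8 over left-out libraries; limma at 0.1 called 1 higher. Against xpo4-2 the 8 calls became 5 without scaling, 5 with only the groups compared, 15 with DESeq2, 4 with limma without a filter and 5 with the replicate block, ran from 1 (without xpo4-2 replicate 1) to 13 (without wild type replicate 1 or 3 or xpo4-2 replicate 2; 4 without double mutant replicate 1 or 3, 5 without cpr5 replicate 2), and limma at either pseudocount called 1 higher. For the averaged cpr5 allele the 16 became 10 without scaling, 10 with limma at 0.1, 5 with limma without a filter and 8 with the replicate block, and ran from 5 (without xpo4-2 replicate 1) to 19 (9 without any 1 of the cpr5 libraries, 10 without wild type replicate 1 or double mutant replicate 1 or 3). The interaction had 0 to 1 lower over left-out libraries (1 without wild type replicate 1 or double mutant replicate 2) and 1 higher with limma at either pseudocount. The replicate block left 4 calls in cpr5 and ended those of atpE against cpr5 and of trnI against wild type in the double mutant, and replicate numbers did not pair the samples (correlations of deviations from group means -0.0877 to 0.214).

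The ratio of plastid shares for cpr5 against wild type was 0.867 on TPM and 0.609 without genes listed more than once, that for the double mutant against wild type 0.63 on TPM, and that for the double mutant against cpr5 0.727 on TPM and 0.721 without genes listed more than once. Over left-out libraries these ratios ran from 0.4 to 0.489, 0.393 to 0.487 and 0.912 to 1.06, that for xpo4-2 against wild type from 0.471 to 0.887 and that for the double mutant against xpo4-2 from 0.484 to 0.911 (without xpo4-2 replicate 1). Where 1 xpo4-2 library was left, it was assumed to vary like the other groups. Without scaling the median interaction of the tested plastid genes was 0.06, with all tested genes at 0.25. The causes were not tested. Low counts limit the NDH, cytochrome b6f and tRNA genes most.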

Other observations

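The TPM table lists 40 further plastid loci that the count table leaves out. Their summed TPM was 67.3, 33.5 and 64.5 for wild type, 37.4 and 37.4 for xpo4-2, 35.9, 44.8 and 46.8 for cpr5, and 19.3, 38.7 and 9.15 for the double mutant. Between 7 and 18 of these loci were above 0 in a library, and the lowest numbers, 9, 8 and 7, were those of the double mutant.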
